A study of Mus musculus with 4 samples.

Results

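The 9 genes described here, Gata6, Timd4, F5, Prg4, Ltbp1, Selp, Icam2, Adgre1 and Cd93, are markers of the large macrophages that live in the mouse peritoneal cavity. They were taken as a list of gene symbols, and all 9 of the 9 were on the array, out of 18193 genes measured. Together they had 20 probe sets that named no other gene. The cells came from the peritoneal cavity of mice given thioglycolate, an irritant that draws monocyte-derived macrophages into the cavity, and were kept for 18 hours on slides. The 4 groups were macrophages labelled Dap12-KO with interleukin-4 (IL-4), macrophages labelled Dap12-KO without treatment, wild type (WT) macrophages with IL-4 and WT macrophages without treatment. DAP12, encoded by Tyrobp, is a membrane adaptor with an ITAM motif that signals for several myeloid receptors, and the study's question was what its loss does to macrophage expression, both without stimulation and in the response to IL-4. The labels name no strain, age or sex, do not say which part of the gene was deleted, and do not say how many mice were pooled.

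With 1 array a group, no value has a replicate. Every difference below is a value between 2 arrays with no test, and the number of arrays limits its precision. All levels are log2 values made by the authors with RMA, and all differences are log2 differences. A gene counts as higher or lower from 2-fold, a log2 difference of 1, among 12767 genes that reached a level floor of 6.39 (the median of all values) on at least 1 array. All 9 markers reached it.

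Resident peritoneal macrophages are seeded early in life and maintain themselves in the cavity. Their identity depends on the transcription factor GATA6, which is induced by retinoic acid from the surrounding tissue and drives genes for cavity functions such as adhesion, clotting, surface lubrication and the uptake of dying cells. Irritants make these resident cells disappear from the lavage for a time, while recruited macrophages that carry little of the GATA6 programme take their place. IL-4 drives alternative activation in both kinds of cell.

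One array was narrower than the rest. Its values, labelled Dap12-KO with IL-4, had an interquartile range of 2.54 log2 units, against 3.19 on the untreated Dap12-KO array, 3.24 on the WT IL-4 array and 3.25 on the untreated WT array. The median of all genes was −0.40 for IL-4 minus untreated in Dap12-KO, and −0.39 for Dap12-KO minus WT with IL-4. For the differences of the markers that rest on the narrower array, the main ones are also given after cyclic loess, a scaling that removes level-dependent shifts between arrays. Tyrobp, the targeted gene, read 13.27 and 14.03 on the Dap12-KO arrays with IL-4 and untreated, against 14.13 and 14.39 on the WT arrays. The Tyrobp signal therefore does not check the label, since it is not known whether its probes cover the deleted stretch, and each genotype direction rests on the labels alone. The macrophage genes Csf1r, Cd68 and Lyz2 read 14.60, 14.52 and 15.06 on the untreated Dap12-KO array and 14.38, 14.36 and 14.89 on the untreated WT array.

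Gata6, the transcription factor at the head of the programme, was above the floor on all 4 arrays. It lies on chromosome 18 at positions 11052510 to 11085636 of GRCm38.p6, the RefSeq build used for all gene positions here. Its brightest probe set read 7.70 on the Dap12-KO array with IL-4 and 8.26 on the untreated Dap12-KO array, against 7.26 on the WT array with IL-4 and 7.42 on the untreated WT array. Both Dap12-KO arrays thus read above both WT arrays. The untreated difference between genotypes was 0.84, a 1.80-fold difference, and the difference with IL-4 was 0.44, or 0.88 after cyclic loess. IL-4 differed from untreated by −0.57 in Dap12-KO, or −0.14 after cyclic loess, and by −0.16 in WT. The other 2 Gata6 probe sets were close to the floor on the untreated arrays, at 6.55 and 6.68 on the untreated Dap12-KO array and 6.26 and 6.37 on the untreated WT array. Their untreated differences of 0.29 and 0.32 had the same sign as that of the brightest one. With IL-4 in Dap12-KO they disagreed, since 1 of them read 7.11 there and differed from untreated by 0.56, while the other differed by −0.16. The median over all 3 probe sets gave an IL-4 difference of 0.42 in Dap12-KO, opposite in sign to that of the brightest probe set.

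The secreted products among the markers were the ones with the larger untreated genotype differences. Prg4 (chromosome 1, positions 150449412 to 150466221) encodes lubricin, a mucin-like glycoprotein that lubricates surfaces. Its single probe set read 11.91 in Dap12-KO with IL-4 and 12.68 in untreated Dap12-KO, against 11.28 in WT with IL-4 and 11.47 in untreated WT. The 2 Dap12-KO arrays were above the 2 WT arrays, with differences of 1.21 untreated and 0.64 with IL-4, the second of which was 1.24 after cyclic loess. With IL-4, Prg4 differed by −0.77 in Dap12-KO, or −0.22 after cyclic loess, and by −0.20 in WT.

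F5 encodes coagulation factor V, the cofactor with which factor Xa turns prothrombin into thrombin. It read 8.56 in Dap12-KO with IL-4 and 9.70 in untreated Dap12-KO, against 8.41 in WT with IL-4 and 8.37 in untreated WT. The untreated Dap12-KO array stood apart and the other 3 lay within 0.19 of each other. The untreated difference between genotypes was 1.33, a 2.52-fold difference, and the second F5 probe set gave 1.05. With IL-4, F5 differed by −1.15 in Dap12-KO and by 0.04 in WT, but the first value was −0.50 after cyclic loess and so was no longer at 2-fold. The genotype difference with IL-4 was 0.15 as deposited and 0.85 after cyclic loess.

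Ltbp1 (chromosome 17, positions 75005480 to 75392512) encodes a latent TGF-β binding protein, which holds latent TGF-β and ties it to the matrix. It had the largest untreated genotype difference of the 9. It read 6.36 in Dap12-KO with IL-4, which is below the floor, and 8.74 in untreated Dap12-KO, against 6.52 in WT with IL-4 and 6.97 in untreated WT. Only the untreated Dap12-KO array was well above the floor, with a difference of 1.78 (3.42-fold) from untreated WT. With IL-4, Ltbp1 was 5.24-fold lower in Dap12-KO, at −2.39 or −2.18 after cyclic loess, and differed by −0.44 in WT. The sizes of these differences rest on readings near background. The 2 other Ltbp1 probe sets lay below the floor on all 4 arrays, with untreated genotype differences of 0.46 and 0.09.

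Among the surface receptors, Timd4 and Adgre1 varied the least. Timd4 (chromosome 11, positions 46810786 to 46844333) encodes TIM-4, a phosphatidylserine receptor that tethers dying cells and marks long-lived resident macrophages. It read 8.10 in Dap12-KO with IL-4 and 8.46 in untreated Dap12-KO, against 8.86 in WT with IL-4 and 8.23 in untreated WT. Among the 9 it alone had its highest level on the WT IL-4 array. No Timd4 comparison of 2 arrays was at 2-fold, and its largest difference, −0.76 between genotypes with IL-4, was −0.11 after cyclic loess. In WT, IL-4 was accompanied by a difference of 0.63.

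Adgre1 (chromosome 17, positions 57358581 to 57483529) encodes an adhesion receptor of the macrophage surface, commonly used to sort mouse macrophages. It read 13.01 in Dap12-KO with IL-4 and 13.54 in untreated Dap12-KO, against 13.06 on both WT arrays. The 4 levels spanned 0.53, the smallest span of the 9. Icam2 (chromosome 11, positions 106377656 to 106388139), an adhesion molecule that binds the integrin LFA-1, read 8.88 in Dap12-KO with IL-4 and 9.24 in untreated Dap12-KO. It read 8.56 in WT with IL-4 and 8.44 in untreated WT. Both Dap12-KO arrays were above both WT arrays, by 0.80 untreated and by 0.32 with IL-4. After cyclic loess the difference with IL-4 was 1.02.

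Selp was the marker that was higher with IL-4 in both genotypes. It encodes P-selectin, known as an adhesion receptor of platelets and endothelium that slows leukocytes, and reported on resident peritoneal macrophages of mice. It read 9.28 in Dap12-KO with IL-4 and 8.27 in untreated Dap12-KO, against 8.81 in WT with IL-4 and 7.19 in untreated WT. Both IL-4 arrays were above both untreated arrays. IL-4 was accompanied by differences of 1.01 in Dap12-KO (1.61 after cyclic loess) and 1.62 in WT (3.08-fold). All 3 Selp probe sets read higher with IL-4, by 0.94 to 1.01 in Dap12-KO and by 1.57 to 2.37 in WT. The 2.01-fold difference in Dap12-KO lay at the threshold. Median centring took it to 0.90. Untreated, the 3 probe sets were higher in Dap12-KO than in WT by 1.08, 1.55 and 1.41.

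Cd93 (chromosome 2, positions 148436651 to 148443535) encodes a C-type lectin-like receptor linked to phagocytosis and cell adhesion, and it was the marker that was lower with IL-4 in both genotypes. It read 11.10 in Dap12-KO with IL-4 and 13.20 in untreated Dap12-KO, against 10.78 in WT with IL-4 and 12.32 in untreated WT. Both IL-4 arrays were below both untreated arrays. IL-4 was accompanied by a 4.29-fold lower level in Dap12-KO (−2.10, or −1.55 after cyclic loess) and a 2.92-fold lower level in WT (−1.55). The next brightest probe set differed by −2.01 in Dap12-KO and −1.63 in WT, and the one after it by −1.33 in Dap12-KO and −0.89 in WT. Of the 2 dimmest Cd93 probe sets, both below the floor on some arrays, 1 differed by 1.26 in the opposite direction in Dap12-KO. The untreated genotype difference of Cd93 was 0.88.

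**Figure D1:**
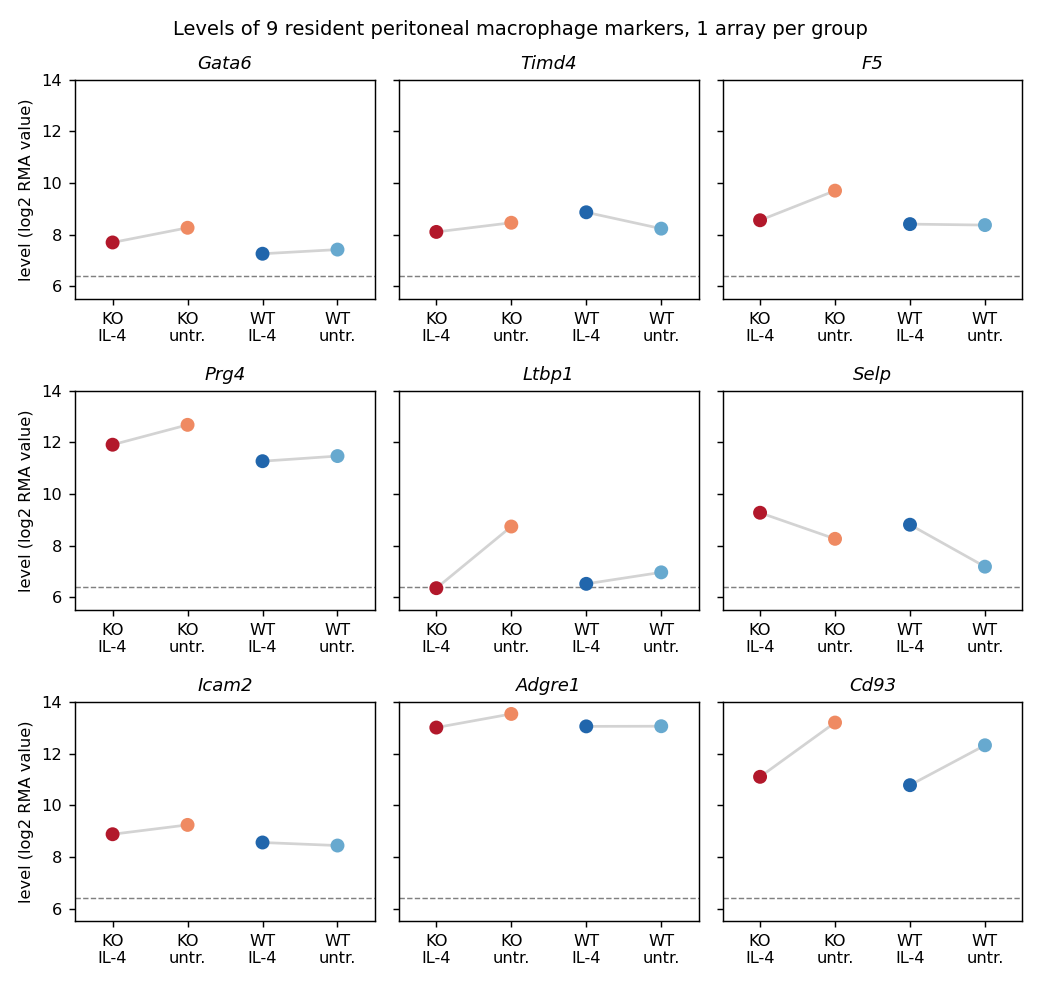
Level of each of the 9 markers (log2 RMA value, vertical axis) on each of the 4 arrays (horizontal axis: Dap12-KO with IL-4, Dap12-KO untreated, WT with IL-4, WT untreated), with 1 array per group and so no error bars. Grey lines join both arrays of a genotype and the dashed line is the floor of 6.39. Selp is higher and Cd93 lower with IL-4 in both genotypes, and 7 of the 9 markers read highest on the untreated Dap12-KO array.

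Selp and F5 are neighbours, and the region just upstream of each is shown because both were higher on the untreated Dap12-KO array while only Selp was at 2-fold with IL-4 in WT. Selp lies on chromosome 1 at positions 164115264 to 164150026 and F5 at 164151835 to 164220277, with 1808 bases and 0 annotated genes between them. The region upstream of Ltbp1, the marker with the largest untreated genotype difference, is shown for comparison, at the first of its 2 listed start sites. That start site lies inside the Ltbp1 gene as placed above, from position 75005480. The last bases of the Ltbp1 window, which ends at 75005528, therefore fall within the gene. The sequences are the 250 bases before the start site on the plus strand of GRCm38.p6, from RefSeq, and capitals mark GGAA and its reverse complement, the core bound by ETS factors such as PU.1.
Selp, chr1:164115014-164115263: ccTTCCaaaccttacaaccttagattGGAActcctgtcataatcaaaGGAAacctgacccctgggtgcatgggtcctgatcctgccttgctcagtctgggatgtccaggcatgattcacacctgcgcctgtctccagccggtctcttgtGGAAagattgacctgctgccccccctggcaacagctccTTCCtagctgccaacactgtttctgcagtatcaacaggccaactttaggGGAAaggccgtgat
F5, chr1:164151585-164151834: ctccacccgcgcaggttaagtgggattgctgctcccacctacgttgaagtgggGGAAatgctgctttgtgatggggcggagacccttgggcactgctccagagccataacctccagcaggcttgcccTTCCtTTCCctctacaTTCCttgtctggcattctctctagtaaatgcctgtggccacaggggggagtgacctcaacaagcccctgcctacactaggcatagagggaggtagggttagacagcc
Ltbp1, chr17:75005279-75005528: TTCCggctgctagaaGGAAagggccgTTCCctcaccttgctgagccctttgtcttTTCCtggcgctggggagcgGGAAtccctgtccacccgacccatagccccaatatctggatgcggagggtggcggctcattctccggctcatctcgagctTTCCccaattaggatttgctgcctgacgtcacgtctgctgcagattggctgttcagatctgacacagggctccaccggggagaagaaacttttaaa

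Upstream windows were listed for 4 of the 9 markers, Selp, F5, Timd4 and Ltbp1, the last with 2 start sites, which made 5 windows. GGAA was in all 5, between 2 and 6 times each, and in 93.4% of all 32851 upstream windows. GATAA, a form of the site bound by GATA factors, was searched on both strands and was in 0 of the 5 windows and in 22.6% of all windows. TTC and GAA with 4 free bases between them, the spacing preferred by the IL-4 factor STAT6, reads the same on both strands. It was in 0 of the 5 and in 5.85% of all windows. These letters were searched in 250 bases only and show nothing about binding elsewhere.

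On the untreated arrays, the markers as a group were higher in Dap12-KO than in WT. Ltbp1 (1.78), F5 (1.33), Prg4 (1.21) and Selp (1.08) were at 2-fold or more, which is 4 of 9, and 0 were lower at 2-fold. Of all genes, 3.12% were higher and 3.41% lower at 2-fold in this comparison. Cd93 (0.88), Gata6 (0.84) and Icam2 (0.80) came next, and Adgre1 (0.48) and Timd4 (0.23) had the smallest differences. All 9 had a positive difference, against 52.6% of all genes. All 20 of their probe sets were positive too, but probe sets of 1 gene are not separate observations. The 2 dimmer Ltbp1 probe sets among them lay below the floor on all 4 arrays. The median of the markers was 0.88 and that of all genes 0.03. The same 4 of 9 stood at 2-fold after cyclic loess of all 4 arrays, after quantile normalization and after median centring. With the Dap12-KO IL-4 array left out of the cyclic loess, a setting chosen after the data had been seen, 4 of 9 were again higher and the median was 0.98. In RNA of bulk cultures, more cells of a type and more RNA per cell cannot be told apart.

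**Figure D2:**
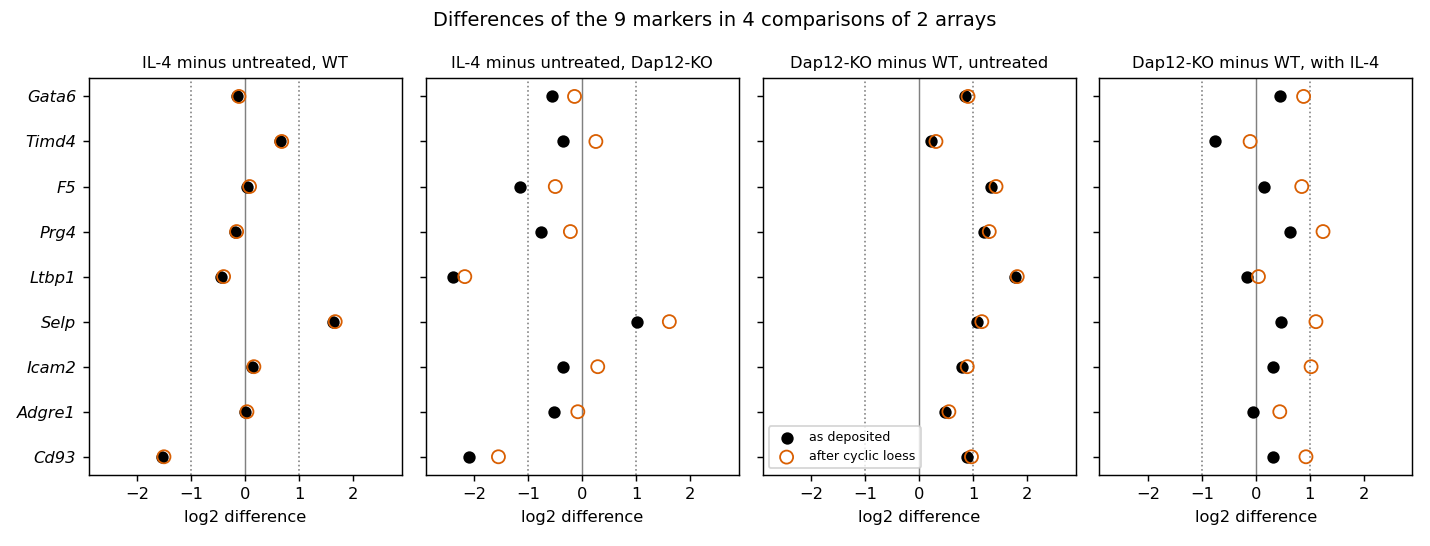
Log2 differences of the 9 markers (rows) in the 4 comparisons of 2 arrays (panels), as deposited (filled) and after cyclic loess (open), with dotted lines at 2-fold. All 9 markers lie right of 0 in the untreated genotype comparison, by 0.23 to 1.78, and the 2 scalings part mainly in the panels with the Dap12-KO IL-4 array.

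With IL-4, the difference between genotypes was smaller as deposited. At 2-fold, 0 of 9 markers were higher and 0 lower, against 10.9% of all genes higher and 17.6% lower. Prg4 had the largest positive difference, 0.64, and 6 of 9 were positive, against 34.2% of all genes. The median of the markers was 0.32, where that of all genes was −0.39. After cyclic loess the median of the markers was 0.88, and Prg4 (1.24), Selp (1.11) and Icam2 (1.02) were at 2-fold, 3 of 9 against 12.6% of all genes. Gata6 (0.88), Cd93 (0.93) and F5 (0.85) were then just under 2-fold, while Ltbp1 (0.05) and Timd4 (−0.11) were near 0. Quantile normalization gave 2 of 9 at 2-fold. The scaling of the narrower array thus decides how many markers are at 2-fold between the genotypes with IL-4.

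IL-4 in WT left most of the markers within a narrow range. Selp (1.62) was the 1 marker higher and Cd93 (−1.55) the 1 marker lower at 2-fold, where 1.21% of all genes were higher and 1.25% lower. Timd4 (0.63) and Ltbp1 (−0.44) came next, and Gata6, F5, Prg4, Icam2 and Adgre1 differed by −0.20 to 0.12. The median was −0.01 for the markers and −0.03 for all genes. In Dap12-KO, 1 of 9 was higher with IL-4 (Selp) and 3 of 9 were lower, namely Ltbp1, Cd93 and F5, where 8.04% of all genes were higher and 17.6% lower. Without Selp the other 8 were all negative as deposited, where the median of all genes was −0.40 and only 33.9% of all genes were positive. After cyclic loess 3 of 9 were positive, Ltbp1 and Cd93 stayed at 2-fold, and the median of the markers was −0.14 where that of all genes was 0.07.

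The difference of the IL-4 responses, Dap12-KO minus WT, was negative for all 9 markers as deposited, with a median of −0.57 against −0.36 for all genes. Ltbp1 (−1.94) and F5 (−1.18) were at 2-fold, or 2 of 9, where 14.8% of all genes were lower and 8.15% higher. After cyclic loess Ltbp1 (−1.77) remained at 2-fold, F5 was at −0.58, and Gata6, Prg4, Selp and Cd93 lay between −0.06 and −0.02. This comparison shares its untreated arrays with the genotype comparison above, so the values are not separate evidence. For 7 of 9 markers the untreated Dap12-KO array was the highest of the 4, as it was for 28.7% of all genes. After cyclic loess these were 6 of 9 and 26.5%.

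**Figure D3:**
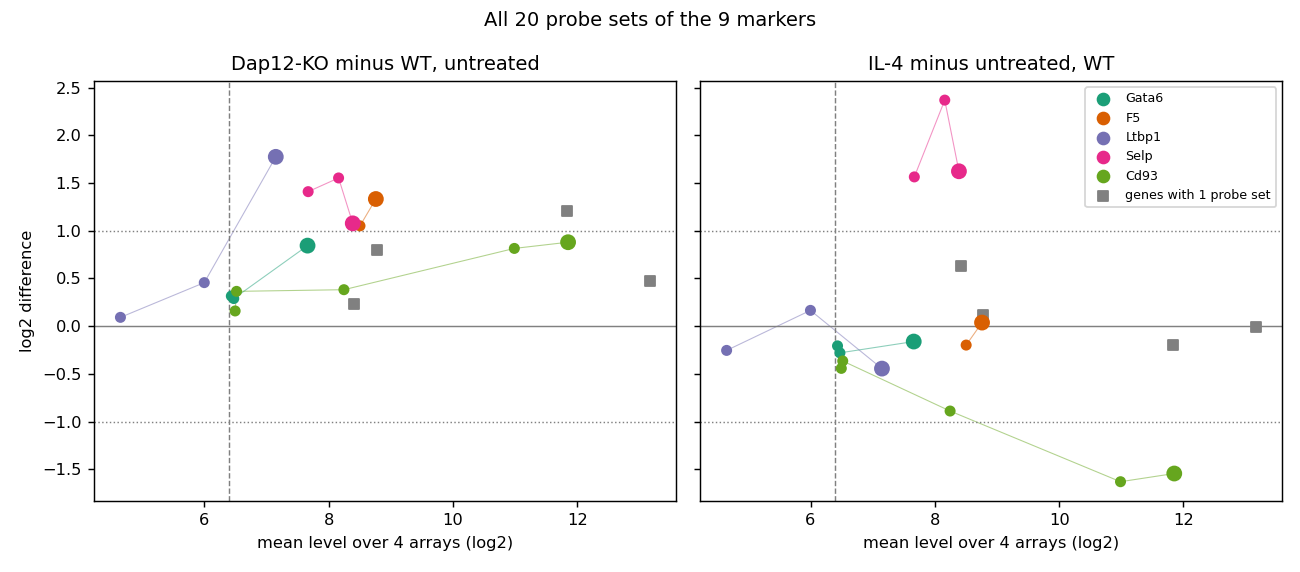
All 20 probe sets of the 9 markers, with the mean level over the 4 arrays (log2, horizontal axis) against the log2 difference (vertical axis) of untreated Dap12-KO minus untreated WT (left) and of IL-4 minus untreated in WT (right). Larger points are the probe sets that stand for their gene, lines join probe sets of 1 gene, and the dashed line is the floor. All 20 lie above 0 on the left, and on the right the 3 Selp probe sets lie at 1.57 to 2.37 while the 5 Cd93 probe sets lie at −0.37 to −1.63.

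Other genes known from resident cavity macrophages were at 2-fold more often higher than lower on the untreated Dap12-KO array. Of 20 measured genes, 5 were higher and 1 lower, where 3.12% of all genes were higher and 3.41% lower. The list median was 0.21, against 0.03 for all genes. The growth factor Tgfb2 differed by 2.94, the transcription factor Klf2 by 1.46, the lipoxygenase Alox15 by 1.39, the complement receptor Vsig4 by 1.33 and the chemokine Cxcl13 by 1.02, of which Klf2 and Cxcl13 were picked after their values had been seen. Serpinb2, an inhibitor of plasminogen activators and also a peritoneal macrophage gene, was at −1.90. The untreated WT level of Tgfb2, 6.56, lay just above the floor. With IL-4 6 of the 20 were higher and 1 lower between genotypes, where 10.9% of all genes were higher and 17.6% lower. Of the higher ones, Garnl3 and Apoc1 reached the floor only on the narrower Dap12-KO IL-4 array, at 7.17 and 6.50. After cyclic loess 6 were higher and 0 lower, where 12.6% of all genes were higher and 5.51% lower.

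Genes of the retinoic acid pathway upstream of GATA6 were set beside all genes, of which 3.12% were higher and 3.41% lower between untreated genotypes. Of the pathway genes above the floor, 2 of 14 were higher at 2-fold and 0 lower. These were the retinal reductase Dhrs3 (1.27) and the receptor partner Rxra (1.14), both named after their values had been seen. The retinoic acid receptor Rarb differed by −0.56 and lay below the floor on 3 of the 4 arrays. IL-4 was accompanied by higher Aldh1a2, an enzyme that makes retinoic acid, at 9.80 with IL-4 and 8.03 untreated in Dap12-KO and at 10.15 with IL-4 and 8.19 untreated in WT. Rbp4, the retinol carrier, read 6.74 with IL-4 and 5.22 untreated in Dap12-KO, and 6.90 with IL-4 and 5.16 untreated in WT, where the untreated readings lay below the floor. Some other genes of the pathway differed with IL-4 mainly in Dap12-KO or mainly in WT. Tgm2 differed by 0.24 in Dap12-KO and by 1.19 in WT. Cyp26a1 differed by 1.87 in Dap12-KO (2.28 after cyclic loess) and by −0.26 in WT. Rdh10 differed by −1.38 in Dap12-KO (−0.77 after cyclic loess) and by −0.12 in WT. Gata6 itself differed by −0.57 and −0.16 with IL-4 on the same arrays.

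The partners of the secreted and surface markers held genes of both directions. On the untreated arrays 3.12% of all genes were higher and 3.41% lower. Among the coagulation genes that work with F5, 1 of 13 was higher on the untreated Dap12-KO array, thrombomodulin (Thbd, 1.44), and 2 were lower, tissue factor (F3, −2.64) and the protein C receptor Procr (−1.88). Of the latent TGF-β genes 2 of 15 were higher and 3 lower, the growth factor Tgfb2 (2.94) and the receptor Tgfbr2 (1.24) against the integrin chain Itgb8 (−1.52, with both untreated readings below the floor), the growth factor Tgfb1 (−1.40) and the inhibitor Smad7 (−1.37). Of the other phosphatidylserine receptors and their bridging proteins, which work beside Timd4, 5 of 17 were higher and 2 lower. Cd300lf (2.66), Mertk (1.97), Havcr2 (1.79), the bridging protein Gas6 (1.46) and the integrin chain Itgb5 (1.09) were the higher ones, and the integrin chain Itgb3 (−2.97) and Axl (−2.12) were the lower ones. ICAM family genes and their integrins had 0 of 9 higher and 2 lower, Itgax (−1.93) and Icam1 (−1.46). Of the hyaluronan and lubricin partners of Prg4 1 of 11 was higher (Foxo3, 1.05) and 0 were lower, and of the other GATA factors and their cofactors 0 of 4 were higher and 2 lower (Gata2, −1.56, and Gata3, −1.03).

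In the untreated genotype comparison 3.12% of all genes were higher and 3.41% lower at 2-fold. Of 7 group XIV lectins and partners of Cd93, 2 were higher on the untreated Dap12-KO array, Thbd (1.44) and Cgnl1 (1.21). Both were lower with IL-4, Thbd by a difference of −3.39 in Dap12-KO (−3.06 after cyclic loess) and −1.09 in WT, and Cgnl1 by −2.03 in Dap12-KO (−1.37 after cyclic loess) and −1.04 in WT. These are the same directions as for Cd93, but the other genes of this list above the floor were not at 2-fold with IL-4. Of the 7, 0 were higher and 2 lower with IL-4 in each genotype. Of all genes 17.6% were lower with IL-4 in Dap12-KO and 1.25% in WT. Thbd with IL-4 in Dap12-KO lay below the floor. Of 8 other adhesion receptors of the Adgre1 class 1 was higher untreated, Adgre5 (1.13), and 1 lower, Adgrg3 (−1.26). Adgre5 was picked after its value had been seen, as were Gas6, Itgb5, Tgfbr2 and Smad7 above.

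Genes whose 4 levels followed a marker most closely were ranked by the root mean square (RMS) difference of levels centred on each gene's mean, over these 4 arrays only. Nearest genes are given for the 6 markers whose levels spanned 1 log2 unit or more. The nearest was Hpn for Gata6 (RMS difference 0.026), St14 for F5 (0.020) and Sat1 for Prg4 (0.017). It was Rcbtb2 for Ltbp1 (0.078), Clec10a for Selp (0.155) and Slc43a2 for Cd93 (0.100). The second nearest were Ctdspl, Pink1, Vsig4, Klhl24, Man1a and Sash1 in the same order. Vsig4, which was close to Prg4, is itself a resident macrophage gene. Clec10a, nearest to Selp but at the largest RMS difference of these 6 nearest genes, is a lectin of alternatively activated macrophages. With 4 points among 12767 genes a close match is a description of these arrays only.

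Markers of other cells were read on the same arrays, since Selp, Icam2 and Cd93 are also known from endothelium, Selp and F5 from platelets and Prg4 from lining cells. Of 14 endothelial genes 4 were at the floor or above on the untreated Dap12-KO array and 4 on the untreated WT array. Of 9 above the floor on any array, 0 were higher and 1 lower at 2-fold (Flt1, −1.81), with a mean level of 7.0 in both. Among all genes 3.12% were higher and 3.41% lower between untreated genotypes, which is the background for every list below. Cdh5, Tek, Esam and Robo4, which define endothelium, were below the floor on all 4 arrays. Vwf, Egfl7 and Kdr were above it on all 4, and Vwf read 11.07 on the untreated Dap12-KO array and 10.31 on the untreated WT array, a difference of 0.77 in the direction of the markers. Of 7 platelet genes above the floor 1 was higher, Clec1b, and 1 lower, Ppbp (−1.91), at a mean level of 8.0 in both, and Pf4, which macrophages also express, differed by 0.04. Mesothelial and fibroblast genes had 0 of 6 higher and 3 lower (Col3a1, Col1a2 and Dcn), with Msln, Upk3b, Wt1 and Lrrn4 below the floor on all arrays and mean levels of 6.4 in Dap12-KO and 6.9 in WT. Krt8 of the same list was above the floor on all 4 arrays, at 6.84 in untreated Dap12-KO and 6.65 in untreated WT. Krt19 and Krt18 reached the floor only on the Dap12-KO IL-4 array, at 6.98 and 6.51.

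Some genes of other lineages of the cavity differed in the same direction as the markers. On the untreated Dap12-KO array 3.12% of all genes were higher and 3.41% lower at 2-fold than on the untreated WT array. Of 8 B cell genes 1 was higher, Ms4a1 (1.13), and Cd79b differed by 0.95, with a list median of 0.38 and mean levels of 8.1 on the untreated Dap12-KO array and 7.7 on the untreated WT array. Of 5 mast cell genes above the floor the protease Cma1 (1.34) was higher and Gata2 (−1.56) lower, while Kit, Fcer1a and Ms4a2 were below the floor on all 4 arrays. The mean level of those 5 was 7.9 on the untreated Dap12-KO array and 7.5 on the untreated WT array, and their median difference was 0.86. Of 17 general macrophage genes 2 were higher, Maf (2.19) and Mertk (1.97), and 1 lower, Axl (−2.12), with a median of 0.30. Genes of small cavity and monocyte-derived macrophages had 0 of 15 higher and 1 lower, Irf4 (−1.80), with a median of 0.04. Of the neutrophil genes 1 of 8 was higher (Csf3r, 1.52) and 0 lower, of the eosinophil genes 1 of 3 was higher (Alox15) and 0 lower, and of the T and NK cell genes 0 of 6 were at 2-fold. Dendritic cell genes had 0 of 7 higher and 1 lower (Itgax). The part of B cells, mast cells or platelets in the marker differences was not tested.

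**Figure D4:**
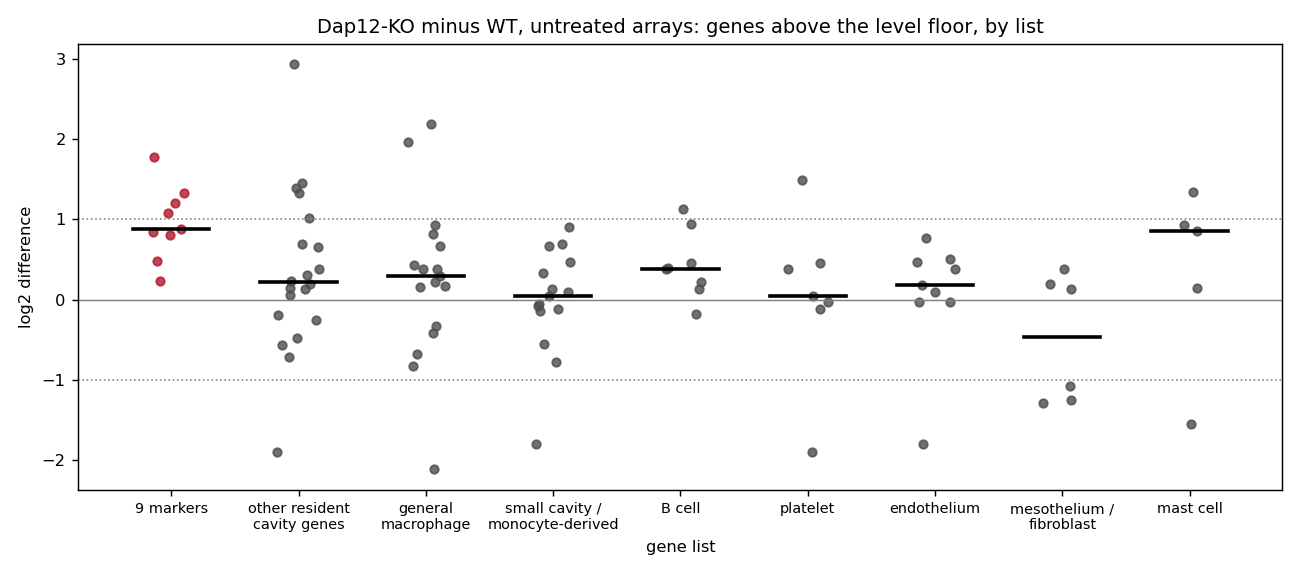
Log2 difference of untreated Dap12-KO minus untreated WT (vertical axis) for each gene above the floor, by gene list (horizontal axis), where each point is 1 gene, bars are list medians and dotted lines mark 2-fold. The 9 markers lie between 0.23 and 1.78 with a median of 0.88, while the medians of the other lists shown lie between −0.47 and 0.86.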

How the data were processed

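Total RNA of 4 macrophage samples was measured on Affymetrix 1-colour arrays, with biotin-labelled cRNA made by 2 cycles of amplification, per the labels' protocols. The authors deposited log2 values per probe set. RMA is the tool that the submitters' processing notes name, without a version. Amplification favours the 3′ part of transcripts. The values carry no detection calls.

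Gene names are those of GEO's platform table, brought up to date by Entrez number with the RefSeq genes of GRCm38.p6 (34741 of 34945 probe sets with 1 gene matched). Each gene took the probe set with the highest mean. Differences and counts at 2-fold were computed over 12767 genes above the floor for 5 comparisons and were tested on simulated data with planted differences. No model was fitted, since an additive fit over the 4 arrays would take the difference of both IL-4 responses as its error. The markers and the 22 other gene lists were chosen with earlier results of these data known. Lists overlap in part, for example Thbd, Tgfb2, Mertk, Axl, Gata2 and Alox15 stand in more than 1. Upstream motifs were chosen after values had been seen. Named genes were the 9 markers, up to 4 genes of each other list with the largest absolute difference, and the 2 genes nearest to each marker whose levels spanned 1 log2 unit. Other genes named were chosen after their values had been seen. These were, for example, the markers of other cell types that were below or above the floor. Csf1r, Cd68, Lyz2, Rarb, Plac8, Garnl3, Apoc1, Tgm2 and Retnla were others. Alternatives were cyclic loess (3 iterations), quantile normalization, median centring, other floors, other thresholds and other uses of probe sets. Python 3.11.15, numpy 2.4.6, pandas 2.3.3, matplotlib 3.10.9, R 4.3.3 and limma 3.58.1 (for the normalizations only) were used.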

Additional observations from a re-analysis of the deposited data

Results flagged for a closer look

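For 5 markers a response had opposite signs in both genotypes or in both treatments, and none of these differences was tested, since each rests on 4 single arrays. The IL-4 response of Timd4 was −0.36 in Dap12-KO and 0.63 in WT, and its genotype difference was −0.76 with IL-4 and 0.23 untreated, so that the responses differed by −0.99. F5 differed by −1.15 with IL-4 in Dap12-KO and by 0.04 in WT, a difference of −1.18. Icam2 differed by −0.36 in Dap12-KO and 0.12 in WT, a difference of −0.48. The genotype difference of Ltbp1 was −0.17 with IL-4 and 1.78 untreated, a difference of −1.94, and that of Adgre1 was −0.05 and 0.48, a difference of −0.52. All rest on the narrower Dap12-KO IL-4 array. After cyclic loess the differences of responses were −0.42 for Timd4, −0.58 for F5, 0.13 for Icam2, −1.77 for Ltbp1 and −0.11 for Adgre1. Opposite signs then remained for F5 (−0.50 with IL-4 in Dap12-KO, 0.08 in WT). They also remained between the genotype differences of Timd4 (−0.11 with IL-4, 0.31 untreated). The IL-4 responses of Timd4 (0.25 in Dap12-KO, 0.67 in WT) and Icam2 (0.29 and 0.16) were then both positive. So were the genotype differences of Ltbp1 (0.05 with IL-4, 1.82 untreated) and Adgre1 (0.44 and 0.55).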

How the results depend on the processing

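No paired analysis was possible because each group is 1 array and the labels give no replicate numbers. Between untreated genotypes 4 markers were at 2-fold under every scaling and floor tried, 3 of 8 by the median over probe sets, 1 at 3-fold, 7 at 1.5-fold, and 7 of 18 probe sets above the floor, all higher. Of all genes 2.38%, 0.713% and 9.98%, and of all probe sets 2.74%, were higher in those settings. Between genotypes with IL-4 the count of 0 became 3 after cyclic loess, 2 after quantile normalization and 2 of 18 probe sets, all higher, where 12.6%, 14.2% and 9.91% of all were. At 1.5-fold it became 1 higher and 1 lower, where 19.6% and 38.9% of all genes were. With IL-4 in WT the count of 2 became 1 higher by the median over probe sets (1.04% of all genes were), 1 higher at 3-fold (0.478%), 3 at 1.5-fold (2 higher and 1 lower, against 3.03% and 4.29%) and 5 of 18 probe sets (3 higher and 2 lower, against 1.15% and 1.08% of all). With IL-4 in Dap12-KO the count of 4 became 3 after cyclic loess (1 higher and 2 lower, against 9.95% and 6.07% of all genes), 3 after quantile normalization (1 and 2, against 11.9% and 8.84%), 3 after median centring (all lower, against 22.7%), 2 by the median over probe sets (both lower, against 14.7%), 2 at 3-fold (both lower, against 4.45%), 5 at 1.5-fold (1 higher and 4 lower, against 17.4% and 38.8%) and 8 of 18 probe sets (2 higher and 6 lower, against 7.28% and 18.8% of all). For the difference of responses the count of 2 became 1 lower after cyclic loess (5.75% of all genes were), after quantile normalization (8.01%), by the median over probe sets (12.8%) and at 3-fold (3.52%), 3 lower after median centring (20.7%), 4 lower at 1.5-fold (35.3%) and 4 of 18 probe sets (1 higher and 3 lower, against 7.45% and 17.1% of all). The median of the markers with IL-4 in WT, −0.01 as deposited, was 0.029 after cyclic loess, 0.010 after quantile normalization, 0.019 after median centring, 0.016 with the floor at the 75th percentile and 0.035 after cyclic loess of 3 arrays. Among single markers, 337 values kept their side of the threshold, 16 passed it, 15 no longer did and 0 of those at 2-fold changed sign. Part of this count is fixed by construction. The other floors reuse the deposited values and could not move them, and the other thresholds could not change a sign. The median over probe sets could not move a marker with 1 probe set. The cause of the shifts was not tested, apart from the thresholds and probe set counts, which differ by construction. By the median over probe sets Ltbp1 fell below the floor, and with the floor at the 75th percentile Gata6 did.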

Other observations

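Gata2, known from mast cells and progenitors, read 7.10 and 7.92 on the Dap12-KO arrays with IL-4 and untreated, against 8.49 and 9.47 on the WT arrays with IL-4 and untreated. Both Dap12-KO arrays were below both WT arrays, by a difference of −1.38 with IL-4 and −1.56 untreated. The difference with IL-4 was −0.76 after cyclic loess and so was no longer at 2-fold. Gata3, a factor of lymphoid cells, differed by −1.03 untreated and lay below the floor on both Dap12-KO arrays.

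Of 15 genes of small cavity and monocyte-derived macrophages, 4 were higher and 3 lower with IL-4 in Dap12-KO, where 8.04% of all genes were higher and 17.6% lower. In WT 3 were higher and 0 lower, where 1.21% of all genes were higher and 1.25% lower. The list median was −0.31 in Dap12-KO and 0.05 in WT. After cyclic loess, 4 of 16 were higher and 1 lower in Dap12-KO, with a median of 0.20, where 9.95% of all genes were higher and 6.07% lower. The mannose receptor Mrc1 and the factor Irf4 were among the higher ones, by 1.79 and 2.63 in Dap12-KO (2.31 and 3.24 after cyclic loess) and by 2.21 and 1.71 in WT. The other higher ones in Dap12-KO were Clec10a (1.30), named above as a lectin of alternatively activated macrophages, and Retnla (1.29). F13a1 (−1.69), Plac8 (−1.31) and Ccr2 (−1.29) were the lower ones in Dap12-KO. Cd24a, a glycoprotein that can serve as a ligand of P-selectin, differed with IL-4 by −3.14 in Dap12-KO (−2.53 after cyclic loess) and −2.05 in WT, on the arrays on which Selp was higher.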
